A study of Mus musculus with 7 samples.

Results

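Connexins are the proteins that build gap junctions, the channels through which neighboring cells pass ions and small molecules to each other. The genes Gja1, Gjb2, Gjb5 and Gjb6, which encode connexins of the epidermis, were followed in skin papillomas with and without expression of p16, a cyclin-dependent kinase inhibitor. They were taken by gene symbol from the deposited table, and all 4 were present among its 14820 genes. A further 7 genes of the gap junction family (connexins and pannexins) are described beside them. In the epidermis, connexins are laid down in layers. Cx43, encoded by Gja1, is the connexin found most widely in basal and spinous keratinocytes, while Cx26 (Gjb2) and Cx30 (Gjb6) are scarce in resting interfollicular epidermis of the mouse and rise in wounds and hyperproliferative skin. Cx31.1 (Gjb5) is found mainly in differentiating keratinocytes. Connexin molecules assemble into hemichannels, and hemichannels of neighboring cells dock to form the junction.

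The data came from whole papillomas, benign epidermal tumors, of mice aged 27 weeks, profiled by CEL-Seq2, which sequences the 3′ ends of transcripts. The p16 group (3 papillomas, numbered 1, 2 and 3) came from K5-rtTA/tet-p16 mice, in which doxycycline switches on a human p16 gene in keratinocytes under the Krt5 promoter, and the control group (4 papillomas, numbered 1, 2, 3 and 5) from tet-p16 mice, which lack the activator. Both groups received the mutagen DMBA once (50 nmol, at 3 weeks of age), then the tumor promoter TPA and doxycycline from a week later, were followed for 23 further weeks, and were killed 10 days after the last TPA dose. The K5-rtTA line was FVB and the tet-p16 line mixed C57Bl6 and 129sv, the groups were siblings, and the transgene is active in only some keratinocytes. No label tells if 1 mouse gave more than 1 papilloma, so the p-values measure only the spread between these papillomas.

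The libraries held 1158035 to 4365391 reads, with the fewest in p16 papilloma 2. Levels are given as normalized reads, that is, reads divided by 1 size factor per papilloma. Keratinocyte markers were abundant in each library, and the 9 markers together summed to between 140619 and 199154 normalized reads. The transgene is a human gene and was not measured by alignment to the mouse genome. The mouse gene Cdkn2a, which encodes endogenous p16, had 52.1, 23.0, 45.7 and 16.9 normalized reads in control papillomas and 26.9, 8.68 and 8.82 in p16 papillomas (adjusted p = 0.175, limma with Benjamini-Hochberg adjustment). Reads were counted per gene, so these values do not separate p16 from any other transcript of Cdkn2a. Papilloma 2 of the p16 group carried more skeletal muscle RNA than the others, with 5879 normalized reads over 7 muscle markers against 91.7 to 1196 elsewhere. The 4 erythroid markers were all lower in the p16 group, and summed to 188 to 732 normalized reads there against 1589 to 12907 in controls. Of 6 adipocyte markers 3 were tested, and Adipoq and Cfd were called higher in the p16 group, while the summed level of the 6, nearly all from Fabp4, ran from 1415 to 2408 normalized reads there and from 1813 to 11260 in controls. The part of these cell types in the connexin values was not tested.

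The promoters of Gja1, Gjb2 and Gjb6 are shown. Gja1 was the only member called in the limma test without a block over all 7 papillomas, and Gjb2 and Gjb6 varied together. Each run covers 250 bases before to 50 bases after the start site annotated by RefSeq on GRCm38.p6, read in the direction of transcription, and promoters of all 4 members were found. Capitals mark matches, on either strand, to 6 short motifs. These were the AP-1 motif spelled TGANTCA, in which N is any base, the GC box spelled GGGCGG, the TATA motif with the letters TATAAA, the E-box written as CACGTG, the CACCC box searched as CCACCC, and a further AT-rich motif with the letters TTAAAA. Neighboring or overlapping matches merge into 1 run of capitals.
Gja1, chr10:56377050-56377349, plus strand: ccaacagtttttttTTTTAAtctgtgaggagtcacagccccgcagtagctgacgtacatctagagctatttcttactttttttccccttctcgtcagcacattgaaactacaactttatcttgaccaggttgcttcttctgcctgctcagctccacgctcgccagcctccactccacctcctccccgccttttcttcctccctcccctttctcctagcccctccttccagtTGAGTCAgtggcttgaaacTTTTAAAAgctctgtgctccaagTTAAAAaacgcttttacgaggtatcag
Gjb2, chr14:57104653-57104952, minus strand: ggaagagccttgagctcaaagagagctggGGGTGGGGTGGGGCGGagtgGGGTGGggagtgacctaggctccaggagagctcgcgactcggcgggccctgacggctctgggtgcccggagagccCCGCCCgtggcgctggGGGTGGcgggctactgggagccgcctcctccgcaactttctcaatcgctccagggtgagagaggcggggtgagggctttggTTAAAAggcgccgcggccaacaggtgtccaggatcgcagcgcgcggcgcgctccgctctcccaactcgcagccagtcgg
Gjb6, chr14:57133562-57133861, minus strand: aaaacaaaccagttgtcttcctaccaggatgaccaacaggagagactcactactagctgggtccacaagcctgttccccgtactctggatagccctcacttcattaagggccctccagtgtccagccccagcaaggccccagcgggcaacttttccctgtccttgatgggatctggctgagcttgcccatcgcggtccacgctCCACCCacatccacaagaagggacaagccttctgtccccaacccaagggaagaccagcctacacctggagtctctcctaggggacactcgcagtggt

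The Gja1 promoter held 1 AP-1 match, 19 bases before the start site, and 4 matches to TTAAAA. AP-1 is the Fos and Jun family of factors that TPA is known to activate. The Gjb2 promoter was GC-rich (70.0% G or C, against a median of 52.7% over 32851 promoters), and held 2 GC box matches, 4 CACCC box matches and 1 match to TTAAAA. The Gjb6 promoter (57.3% G or C) held 1 CACCC box match alone, and the Gjb5 promoter (54.3%) 1 TATA match. Among the 32851 promoters of that length, 7.81% held the AP-1 motif, 35.7% the GC box, 13.6% the TATA motif, 7.15% the E-box, 31.5% the CACCC box and 19.2% TTAAAA. These matches describe letters only, and no binding was measured.

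The members lie at 3 places in the genome (GRCm38, GENCODE M21). Gja1 (ENSMUSG00000050953) stands alone at chr10:56377330-56402513 on the plus strand. Gjb2 (ENSMUSG00000046352, chr14:57098600-57104702) and Gjb6 (ENSMUSG00000040055, chr14:57123303-57133611) lie on the minus strand with 18.6 kb between them. Gja3, a lens connexin, lies 40.5 kb from Gjb2, on the side away from Gjb6. Gjb5 (ENSMUSG00000042357) lies at chr4:127354809-127358181 on the minus strand. In each member the whole coding sequence sits in 1 exon, as is usual for connexins, and no other annotated gene overlaps a member. Each member carries the table's mark for genes expressed in sorted keratinocytes.

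Gja1 mRNA was higher in p16 papillomas than in controls. Gja1 had 664, 455, 419 and 401 normalized reads in control papillomas 1, 2, 3 and 5, and 956, 819 and 800.4 in p16 papillomas 1, 2 and 3. The groups did not overlap, and the highest control, papilloma 1, lay nearest to the p16 group. The means were 485 ± 122 (SD, n = 4) and 859 ± 85.2 (SD, n = 3), a log2 difference of 0.85 ± 0.18 (SE), or 1.80-fold, with a 95% interval of 1.36- to 2.38-fold (adjusted p = 0.0219, limma with Benjamini-Hochberg adjustment over 10466 genes). Among all genes tested, 2.66% were called higher and 2.96% lower in p16 papillomas, and Gja1 was the only member of the 4 that was called. The call was lost (adjusted p between 0.0627 and 0.0824) when control papilloma 2 or 5, or p16 papilloma 1 or 2, was left out, while the log2 difference stayed between 0.77 and 1.01 in these and the other omissions.

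Gja1 is also expressed in fibroblasts, vessel walls and smooth muscle, so the markers of those cells are given beside it. The 6 fibroblast markers summed to 4470 to 12926 normalized reads in controls and 3633 to 19274 in p16 papillomas, and 1 of the 6 was called higher. The 7 endothelial markers summed to 121 to 191 in controls and 119 to 147 in p16 papillomas, and the 6 markers of smooth muscle and pericytes to 261 to 546 and 266 to 380.0. Tek and Cnn1 were at 0 in at least 1 library, and none of the markers tested in these last groups was called. The ranges overlapped between the groups in each of the 3 lists. For fibroblasts they did so through p16 papilloma 2 (3633), while p16 papillomas 1 and 3 (13527 and 19274) lay above each control. The part of these cells in the Gja1 values was not tested. In RNA of whole papillomas, fewer cells of a type and less RNA per cell cannot be told apart.

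**Figure D1:**
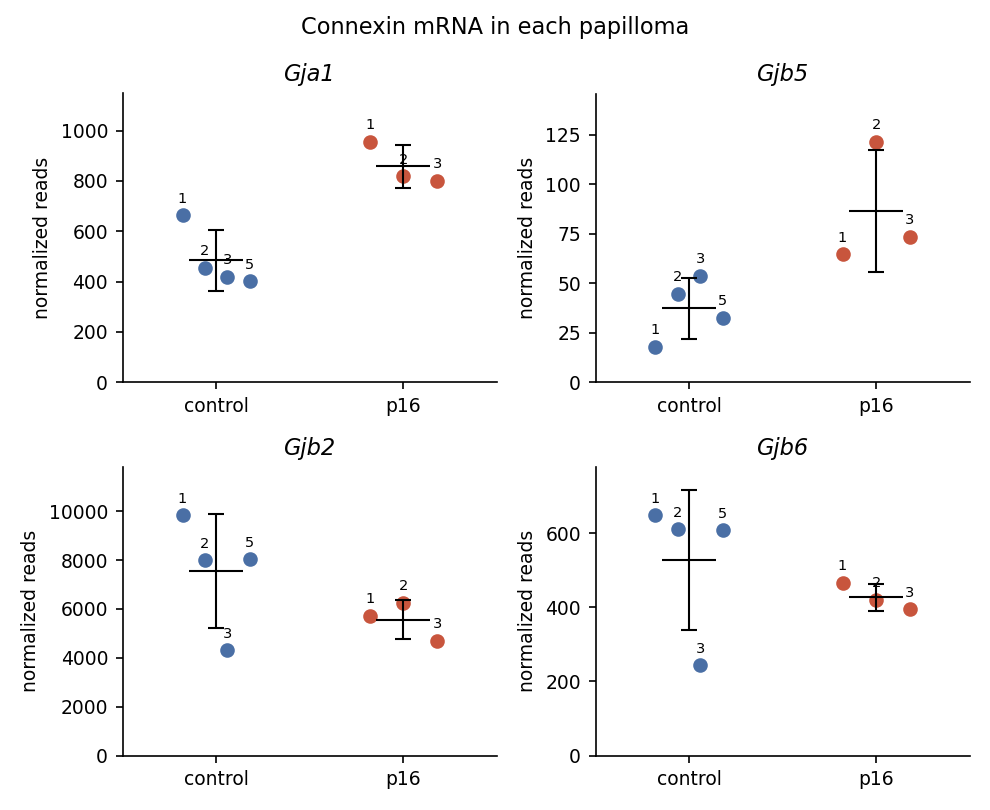
Normalized reads (linear axes from 0) of the 4 members in each control (blue) and p16 (red) papilloma, each point labelled with its papilloma number, with the group mean and SD in black. Gja1 and Gjb5 show no overlap between groups, while control papilloma 3 lies lowest for Gjb2 (4304) and Gjb6 (244).

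Gjb2 did not pass the test. Mutations of human GJB2 are a common cause of inherited deafness, some of them with skin disease. Gjb2 had 9838, 7986, 4304 and 8035 normalized reads in control papillomas 1, 2, 3 and 5, and 5721, 6252 and 4695 in p16 papillomas 1, 2 and 3. The p16 values lay below 3 of the controls and above control papilloma 3. The means were 7541 ± 2323 (SD, n = 4) and 5556 ± 792 (SD, n = 3), a log2 difference of -0.39 ± 0.25 (SE, 95% interval -0.94 to 0.16, adjusted p = 0.409, limma with Benjamini-Hochberg adjustment). Without control papilloma 3 the log2 difference was -0.64 and the adjusted p 0.0615, and over the omission of each other papilloma in turn it ran from -0.48 to -0.24, nearest to 0 without control papilloma 1.

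Gjb6, the neighbor of Gjb2, showed the same arrangement. Gjb6 had 648, 610.0, 244 and 607 normalized reads in control papillomas 1, 2, 3 and 5, and 465, 420 and 395 in p16 papillomas 1, 2 and 3. Again the p16 papillomas fell between control papilloma 3 and the other controls, which lay close together. The means were 527 ± 190 (SD, n = 4) and 427 ± 35.9 (SD, n = 3), a log2 difference of -0.21 ± 0.29 (SE, 95% interval -0.85 to 0.43, adjusted p = 0.731, limma). Without control papilloma 3 it was -0.54 with an adjusted p of 0.0644, and without control papilloma 1, 2 or 5 it was -0.076, -0.11 and -0.11. The interval of each gene includes 0 and changes of more than 1.5-fold downward, so neither a fall nor its absence was shown.

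Gjb5 was low, and its values in the p16 group all lay above those of controls. Gjb5 had 17.9, 44.7, 53.9 and 32.7 normalized reads in control papillomas 1, 2, 3 and 5, from 21, 37, 59 and 31 reads. It had 64.6, 122 and 73.5 in p16 papillomas 1, 2 and 3, from 48, 42 and 100 reads. The p16 value nearest to the controls was that of papilloma 1, and the highest that of papilloma 2, the shallowest library. By counting error alone (exact binomial 95% intervals, in normalized reads), that highest value ran from 87.6 to 164, above the upper bound of each control, of which the highest was 69.5 in control papilloma 3. The interval of p16 papilloma 1, from 47.6 to 85.6, overlapped those of control papillomas 2 and 3. So did that of p16 papilloma 3, from 59.8 to 89.4.

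The means of Gjb5 were 37.3 ± 15.6 (SD, n = 4) and 86.5 ± 30.7 (SD, n = 3). The log2 difference of 1.25 ± 0.36 (SE), or 2.37-fold with a 95% interval of 1.38 to 4.08, did not pass the test (adjusted p = 0.0680, limma with Benjamini-Hochberg adjustment). With DESeq2 on the recovered reads the adjusted p was 0.0291 and Gjb5 was called, where 3.76% of genes were called higher. Of the 4 members, Gja1 and Gjb5 had groups that did not overlap, both with p16 higher, against 9.25% of tested genes with p16 higher and 10.4% with p16 lower.

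Of the 7 other gap junction family genes described here, 2 passed the filter on low values, and none of the 2 was called by limma, DESeq2 or edgeR (0 at an unadjusted p under 0.05 with limma). Panx1, a channel protein of the pannexin family, had 16.4 to 46.4 normalized reads in controls and 32.3 to 54.4 in p16 papillomas (log2 difference 0.39 ± 0.35, SE, adjusted p = 0.566, limma). Gjb1, a connexin best known from liver and peripheral nerve, had 6.04 to 24.2 and 10.8 to 11.8 normalized reads (log2 difference 0.03 ± 0.49, SE, adjusted p = 0.980, limma), and its sign changed with the method and with the papillomas left out. The groups of both genes overlapped. The median log2 difference was 0.32 over the 4 members, beside -0.02 over all 10466 genes. With 2 members positive and 2 negative, that median describes no shared direction.

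Of the 5 of these genes below the filter, Gja4 and Gjc1, both connexins of the vessel wall, had means of 7.66 ± 1.91 and 6.75 ± 2.12 normalized reads in controls (SD, n = 4) and 3.78 ± 0.79 and 2.33 ± 2.09 in p16 papillomas (SD, n = 3), from 31 and 27 reads over all controls and 10 and 7 over the fewer and on average shallower p16 libraries. Panx3 and Gjc3 had 5 reads or fewer in each group. Gja3 had no read in any library, which allows up to 3 reads in each. None of these 5 was tested.

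**Figure D2:**
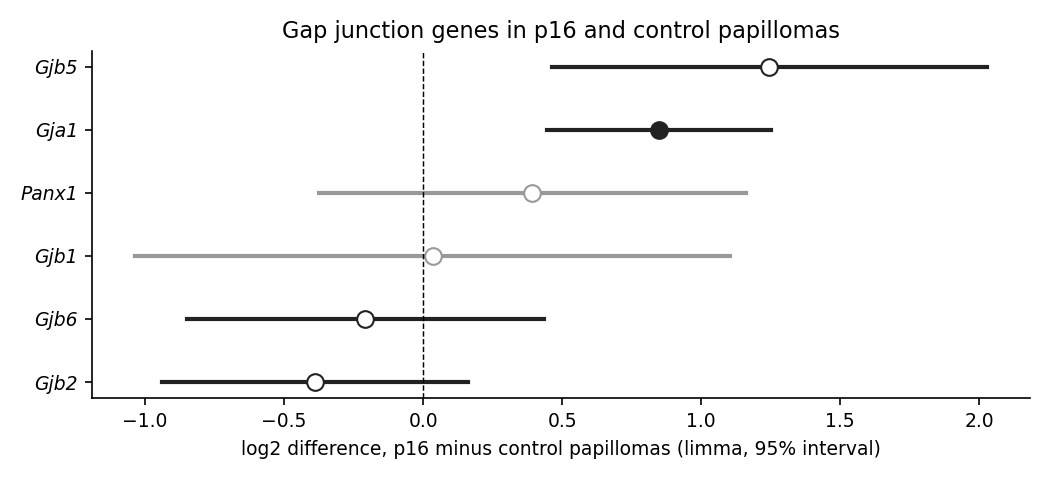
Log2 difference between p16 and control papillomas (horizontal axis, with 95% intervals from limma) for the 4 members in black and the other tested gap junction genes described here, Panx1 and Gjb1, in gray, with filled points for adjusted p under 0.05. Gja1 (0.85) is filled, the interval of Gjb5 (1.25) lies above 0 with an open point, and the intervals of Gjb2, Gjb6, Gjb1 and Panx1 cross 0.

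The make-up of the reads of the 4 members together shifted with these values. Gjb2 took 88.1%, 87.8%, 85.7% and 88.5% of member reads in control papillomas 1, 2, 3 and 5, and 79.4%, 82.1% and 78.7% in p16 papillomas 1, 2 and 3. Gja1 took 5.95%, 5.01%, 8.35% and 4.42% in controls and 13.3%, 10.8% and 13.4% in p16 papillomas. The Gjb2 and Gja1 shares did not overlap between groups. Gjb6 took 4.86% to 6.71% in controls and 5.51% to 6.62% in p16 papillomas, and Gjb5 0.161% to 1.07% and 0.896% to 1.60%, and these shares overlapped. They are shares of 3′-end reads and not of transcript length or protein, a rise in one lowers the others, and they were not tested.

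The members were then compared with each other within each papilloma, so that size factors cancel nearly out. Over the 6 pairs, the difference in log2(value + 1) between the genes of a pair was compared between the groups by an exact two-sided permutation test over the 35 splits of the papillomas, which cannot go below p = 0.0571. Relative to Gjb2, Gja1 was at -3.92 ± 0.42 (SD, n = 4) in controls and -2.69 ± 0.21 (SD, n = 3) in p16 papillomas, a shift of 1.24 on the log2 scale (exact permutation p = 0.0571, adjusted over the 6 pairs p = 0.171). Relative to Gjb6, Gja1 shifted by 1.06 (exact permutation p = 0.0571, adjusted p = 0.171). In both pairs each p16 papilloma lay above each control, and the design allows no smaller p.

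The other pairs overlapped between groups. Gjb2 relative to Gjb5 shifted by -1.63 (exact permutation p = 0.114, adjusted p = 0.229) and Gjb5 relative to Gjb6 by 1.45 (exact permutation p = 0.171, adjusted p = 0.257). Gja1 relative to Gjb5 shifted by -0.40 (exact permutation p = 0.686, adjusted p = 0.686), with a wide spread in controls (2.94 to 5.14), and it became 0.067 without control papilloma 1. Gjb2 relative to Gjb6 shifted by -0.18 (exact permutation p = 0.286, adjusted p = 0.343). The ratio of Gjb2 to Gjb6 was 15.2, 13.1, 17.7 and 13.2 in control papillomas 1, 2, 3 and 5 and 12.3, 14.9 and 11.9 in p16 papillomas 1, 2 and 3, a narrower relative range than that of either gene.

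Across the 7 papillomas, the log2 levels of Gjb2 and Gjb6 had a Pearson r of 0.92, and each stood 13th among 5842 genes in likeness to the other. Gja1 and Gjb5 had an r of 0.44 and Gja1 and Gjb2 one of -0.18. The genes most like Gja1 were Higd1a (r = 0.99), a mitochondrial protein induced by hypoxia, and Lce1i (r = 0.98), of the late cornified envelope family, whose near-identical copies leave its reads uncertain. Higd1a had 550.0 to 896 normalized reads in controls, highest in control papilloma 1 as for Gja1, and 1018 to 1130.0 in p16 papillomas.

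The genes most like Gjb2 were Enah (r = 0.98) and Dstn (r = 0.97), both regulators of actin filaments, and the phosphatase gene Ptp4a1 (r = 0.94). Enah had 892, 813, 487 and 804 normalized reads in control papillomas 1, 2, 3 and 5 and 538 to 619 in p16 papillomas, with the low control papilloma 3 seen for Gjb2. Those most like Gjb5 were Ptdss1 (r = 0.98), a phosphatidylserine synthase, Tmem50a (r = 0.97) and Tapbp (r = 0.97), which loads peptides onto MHC class I. Those most like Gjb6 were Ethe1 (r = 0.97), a mitochondrial enzyme of sulfide breakdown, Pa2g4 (r = 0.97), an ErbB3-binding protein, and Cstf2 (r = 0.96), a factor of mRNA 3′-end formation. These values describe 7 papillomas that share their group differences and library depths, and were picked as the highest of many, so they carry no test.

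Some markers of the suprabasal layers were higher in p16 papillomas. The spinous keratin Krt1 had 12017, 12031, 12109 and 7953 normalized reads in control papillomas 1, 2, 3 and 5 and 32049, 34061 and 24789.8 in p16 papillomas 1, 2 and 3 (log2 difference 1.47 ± 0.21, SE, adjusted p = 0.00221, limma). Krt10, its partner, had a log2 difference of 1.43 ± 0.25 (SE, adjusted p = 0.00715, limma). The basal keratin Krt14 had 23398 to 33335 normalized reads in controls and 13361 to 20581 in p16 papillomas (log2 difference -0.77 ± 0.21, SE, adjusted p = 0.0593, limma), and Krt6b, a keratin of hyperproliferative skin, 105834 to 147867 and 76101 to 109546 (-0.48 ± 0.24, SE, adjusted p = 0.280, limma).

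Of 8 suprabasal genes, 5 were called higher and none lower (median log2 difference 0.90), and of 6 basal genes, none was called higher and 1 lower (median -0.67), against 2.66% and 2.96% of all genes. At an unadjusted p under 0.05 (limma), 6 suprabasal genes were higher and 0 lower, and 1 basal gene was higher and 4 lower, where 9.66% of all genes were higher and 11.6% lower. Not all genes of a layer went one way, with log2 differences of 0.04 for the suprabasal Dsg1a, 0.03 for the suprabasal Dsc1 and 1.01 for the basal Krt15, none of which passed the test. Of 7 genes of hyperproliferative epidermis, 2 were called higher and 2 lower (median -0.48). The part of the layer make-up in the connexin values was not tested. Control papilloma 3, with the lowest Gjb2 and Gjb6 of the controls, was within the range of the other controls for Krt10 and Krt14. It had the lowest Krt6b among them, and the highest Krt1 by a small margin (12109 normalized reads, against 7953 to 12031).

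Of 32 genes whose products bind, modify or sort connexins, 30 were tested, and none was called higher and 2 lower (median log2 difference -0.21), beside 2.66% and 2.96% of all genes. At an unadjusted p under 0.05 (limma), 2 were higher and 8 lower, beside 9.66% and 11.6% of all genes. Src, a kinase that phosphorylates Cx43, had 76.9, 108, 126 and 119 normalized reads in control papillomas 1, 2, 3 and 5 and 57.8, 43.4 and 49.2 in p16 papillomas 1, 2 and 3. Its groups did not overlap, and the log2 difference was -1.07 ± 0.22 (SE, adjusted p = 0.0165, limma with Benjamini-Hochberg adjustment). Without control papilloma 5 or p16 papilloma 2 the adjusted p of Src was 0.0547 and 0.0700.

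Tjp1, which encodes the scaffold ZO-1 at the edge of gap junction plaques, had 104, 96.6, 150 and 120 normalized reads in controls and 80.7, 60.8 and 59.5 in p16 papillomas. The log2 difference of -0.80 ± 0.21 (SE) stood at the threshold (adjusted p = 0.0489, limma), and the call was lost on leaving out any 1 papilloma (adjusted p 0.0542 to 0.147). The next by p-value were Tubb5, a tubulin (-0.75 ± 0.20, SE, adjusted p = 0.0514, limma), and Prkca, a kinase of the protein kinase C family that TPA activates (-1.14 ± 0.31, SE, adjusted p = 0.0540, limma), and neither passed the test. Both had groups that did not overlap, with p16 lower, as did Src, Tjp1 and others of the list, beside 10.4% of all tested genes. Tjp3, which encodes the scaffold ZO-3, had 20.5, 10.9, 47.5 and 17.9 normalized reads in control papillomas 1, 2, 3 and 5 and 99.5, 72.4 and 41.9 in p16 papillomas 1, 2 and 3. Its groups overlapped through control papilloma 3, and its log2 difference of 1.63 ± 0.44 (SE), opposite in sign to that of Tjp1, did not pass the test (adjusted p = 0.0548, limma, and 0.0115 without control papilloma 3). Tuba1a, another tubulin, had a log2 difference of 0.62 ± 0.22 (SE, adjusted p = 0.131, limma). Of the other cell adhesion genes of the list, Ctnnb1, which encodes beta-catenin, had 2860 to 4547 normalized reads in controls and 3297 to 3610 in p16 papillomas (log2 difference -0.01 ± 0.17, SE, adjusted p = 0.991, limma).

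**Figure D3:**
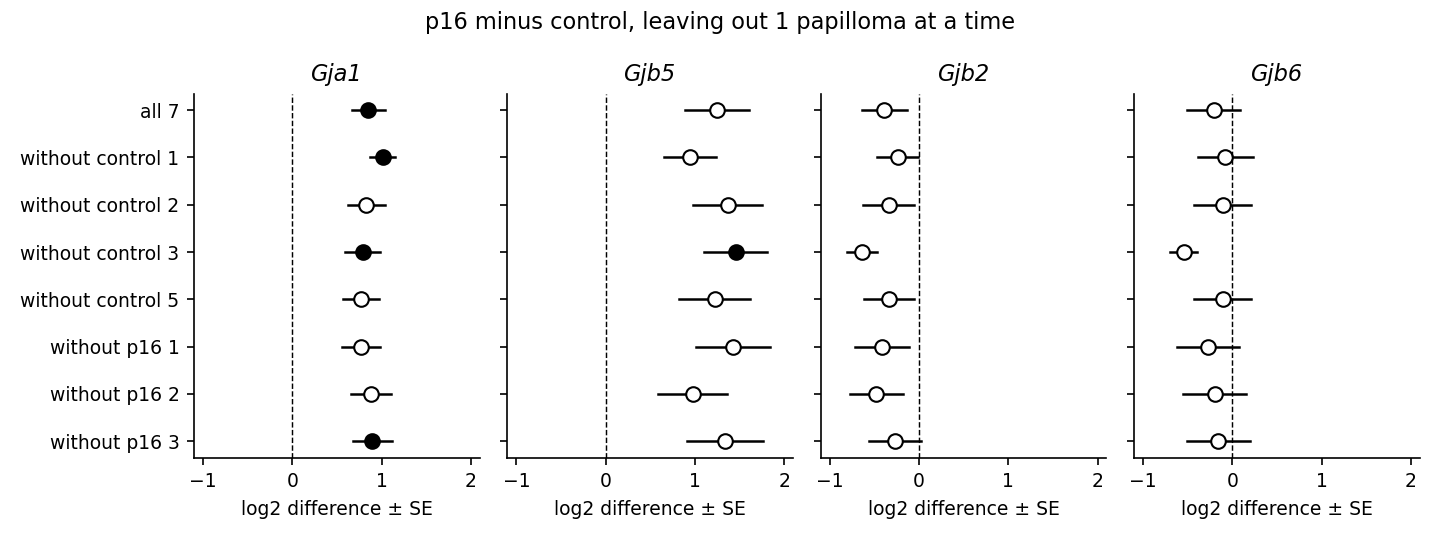
Log2 difference between p16 and control papillomas, with its SE from limma, for each member with all 7 papillomas and with 1 papilloma left out (rows), filled where the adjusted p is under 0.05. Gja1 stays between 0.77 and 1.01 and is filled with all papillomas and in 3 of 7 omissions, Gjb5 is filled only without control papilloma 3 (1.45), and Gjb2 and Gjb6 are farthest from 0 without control papilloma 3 (-0.64 and -0.54).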

How the data were processed

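Whole papillomas were dissected and their RNA profiled by CEL-Seq2. The authors trimmed reads with Cutadapt, aligned them to GRCm38 with TopHat2, counted them with HTSeq and tested genes with DESeq2. Versions, the annotation release, the strand setting and the treatment of multiply mapped reads are not given in the sources used here.

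The deposited signal values, for 14820 genes, are read counts that the authors divided by 1 size factor per papilloma. Further columns hold the authors' fold changes and p-values for p16 against control, which were not used, and a mark for 12235 genes expressed in sorted keratinocytes. In each papilloma 100% of values were whole multiples of the worth of 1 read (tolerance 0.001 reads), so reads were recovered for depth and for count tests. Intervals from reads cover counting error only.

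The plan named limma for values that were not counts and edgeR for counts. The deposited values were not counts, so limma was used. The test took log2(value + 1) with an intensity trend and was two-sided. It covered the 10466 genes whose mean reached 10 in 1 group or both, at a Benjamini-Hochberg adjusted p under 0.05. Folds are on the log2(value + 1) scale, which understates changes of low genes. edgeR on the recovered reads called 543 genes and limma 588. The members and the gene lists were chosen with earlier results of these data known. Named genes were the 4 members, family genes with a mean of at least 10, connexin-associated genes that passed the test and the 4 with the next smallest p-values, 3 genes per member with the highest r (mean of at least 50, clone-type names left out), and Krt14, Krt1, Krt10 and Krt6b. Some genes that these rules select are not reported here. Cdkn2a and Ctnnb1 were added after their values were seen. Positions are those of GENCODE M21. The limma test was tried on simulated reads. It recovered 43 of 100 changes of 2-fold and 75 of 100 of 4-fold, with 6 false calls among 124. Alternatives were other pseudocounts, filters, scalings and tools, a replicate block and the omission of each papilloma. The software was Python 3.11.15 (scipy 1.17.1, pandas 2.3.3, numpy 2.4.6 and matplotlib 3.10.9) and R 4.3.3 (DESeq2 1.42.0, limma 3.58.1 and edgeR 4.0.16).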

Additional observations from a re-analysis of the deposited data

Results flagged for a closer look

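The level of Gjb6 in control papilloma 3 (244 normalized reads) stood apart from the other 3 controls (607 to 648), with a gap of 0.898 of the range of the controls, above the 95% critical value of Dixon's test for 4 samples. It was the only such value among the 12 genes checked, and chance flags about 1 in 20 groups. The gene rested on 267 reads in that library, and its exact binomial 95% interval of 215 to 275 normalized reads, which covers counting error only, lay below those of the other controls, whose lowest bound was 558.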

How the results depend on the processing

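Under 18 alternatives per member, Gja1 kept its direction in 18 and its call in 13, with log2 differences of 0.77 to 1.01. Gjb2 and Gjb6 kept their direction and were called in none, and Gjb5 kept its direction and was called in 2. On leaving out 1 papilloma at a time, Gja1 lay between 0.77 and 1.01 and Gjb5 between 0.94 and 1.45. With DESeq2 Gjb5 was at 1.19 and was called. Gjb1 lay between -0.22 and 0.39 over the omissions, and turned to -0.15 with DESeq2, to -0.15 with edgeR, to -0.22 without control papilloma 2 and to -0.10 without control papilloma 3. Gja1 relative to Gjb5 lay between -0.67 and 0.067 over the omissions, and turned positive without control papilloma 1. The cause was not tested in any of these.

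The number of genes called was 588, and 267 to 548 when 1 papilloma was left out, lowest without p16 papilloma 2, which also leaves fewer samples. Of the other gap junction family genes described, 0 were called in any alternative. In the connexin-associated list 2 genes were called, and 1 without a filter on low values, with scaling to library totals, by TMM or to keratinocyte-marked genes, and with edgeR or limma-voom, 3 with a pseudocount of 4 or a filter at a mean of 50, 4 with DESeq2, and 0 to 4 over the omissions. The median of all genes moved by less than 0.1 on the log2 scale under each scaling.

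Papillomas with the same number did not deviate together (correlations of -0.09, -0.01 and -0.05 for numbers 1, 2 and 3), so the numbers were not treated as pairs. With the number as a replicate block, 270 genes were called, Gja1 was at 0.77 with an adjusted p of 0.0738 (limma), 0 other family genes and 0 connexin-associated genes were called, and Gjb5, Gjb2 and Gjb6 were not called, as in the fit without a block. Control papilloma 5 shares its number with no p16 papilloma, so it added nothing to the estimates of the block fit. Gja1 was also at 0.77 when that papilloma was left out with no block (adjusted p = 0.0673, limma). Reads of 21 to 100 per library limit the precision of Gjb5.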
